A study of Phormium tenax with 2 samples.

Results

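The 73 unigenes described here were plentiful in well-watered leaves of Phormium tenax (New Zealand flax) and at least 8-fold less abundant in leaves under drought. They were selected on the measured reads of both libraries. Each had at least 1000 estimated reads in the control library, and its CPM (reads scaled to a common library total) was at least 8 times higher in the control library than in the drought library. The 200 unigenes with the most control reads were left out beforehand. Of the 75265 unigenes in the tables, 3145 had enough control reads outside those 200, and 73 of these (2.32%) passed the 8-fold limit. That share follows from the selection itself, so the levels and fold changes of the 73 are a description and carry no test. Because the minimum applied to control reads alone, a unigene could enter the list only through its control level. No further filter on low values was applied, and all 73 are covered below.

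The study set drought against normal watering. For the drought library (T01), watering was stopped until the soil had dried to 25% of its water capacity when saturated. Plants then spent 10 days in soil held at that level. For the control library (T02), the soil was held at 70%. Leaf blades of plants aged 1 year were used in both, and equal amounts of RNA from 3 plants were mixed into 1 library per condition, so no spread between plants can be given. The tables held 17744082 estimated reads for drought and 18540627 for control. A unigene is a cluster of assembled transcripts that stands in for a gene. The tables give no chromosome position, sequence or gene name for it, and the leaf label could not be checked against marker genes.

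A leaf that runs short of water closes its stomata, takes up less carbon dioxide and slows its growth. In leaves of many plants, transcripts for photosynthesis and for cell expansion are among those that decline under such conditions. Which of the 73 unigenes belong to these processes is not known from the tables. The published study names 62 unigenes by their identifier, and 0 of the 73 are among them, nor does any of those 62 share an assembly component with one of the 73. By CPM, 15 of the 62 were lower in drought. The study lists most of the 62 as differentially expressed, so this split reflects its choice. The share of all unigenes that were lower was not counted beside it. Only 4 of the 62 had at least 1000 control reads, so no more than 4 could have been on the list. Of all 3145 unigenes with enough control reads outside the top 200, 2.32% were on it, so an overlap of 0 says little about the 73. Of the 4, c56737.graph_c0 and c63742.graph_c1 were higher in drought. The largest fold lower in drought was that of c58202.graph_c0, named there as a glutathione S-transferase, an enzyme family that conjugates glutathione to reactive compounds. This transferase unigene had 544 drought reads and 3342 control reads and was 5.88-fold lower in drought (counting interval 5.37 to 6.45), which is short of the limit. The study's own drop for it, from the program EBSeq rather than CPM, is larger but also short of 8-fold. Under 1000 control reads, c61021.graph_c0, named there as sacA, had 34 drought reads and 452 control reads and was 12.7-fold lower (8.97 to 18.6). The study's own drop for c61021.graph_c0 is larger too. A further 4 of the named unigenes had 0 or 1 drought reads against 19 to 42 control reads, too few for a firm fold.

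Drought reads of the 73 unigenes ranged between 1 and 711 with a median of 138. Their control reads ranged between 1063 and 10338 with a median of 2297. Together they took 0.0804% of all reads in drought and 1.39% in control, a 17.3-fold lower share in drought. The median unigene was also 17.3-fold lower, and its log2 ratio of drought over control was -4.10 after 1 read was added to each count. Over the other 3072 unigenes with as many control reads the median log2 ratio was -0.14, and over all unigenes with reads in either library it was 0.65. In bulk leaf RNA, fewer cells of a type and less RNA per cell cannot be told apart.

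**Figure D1:**
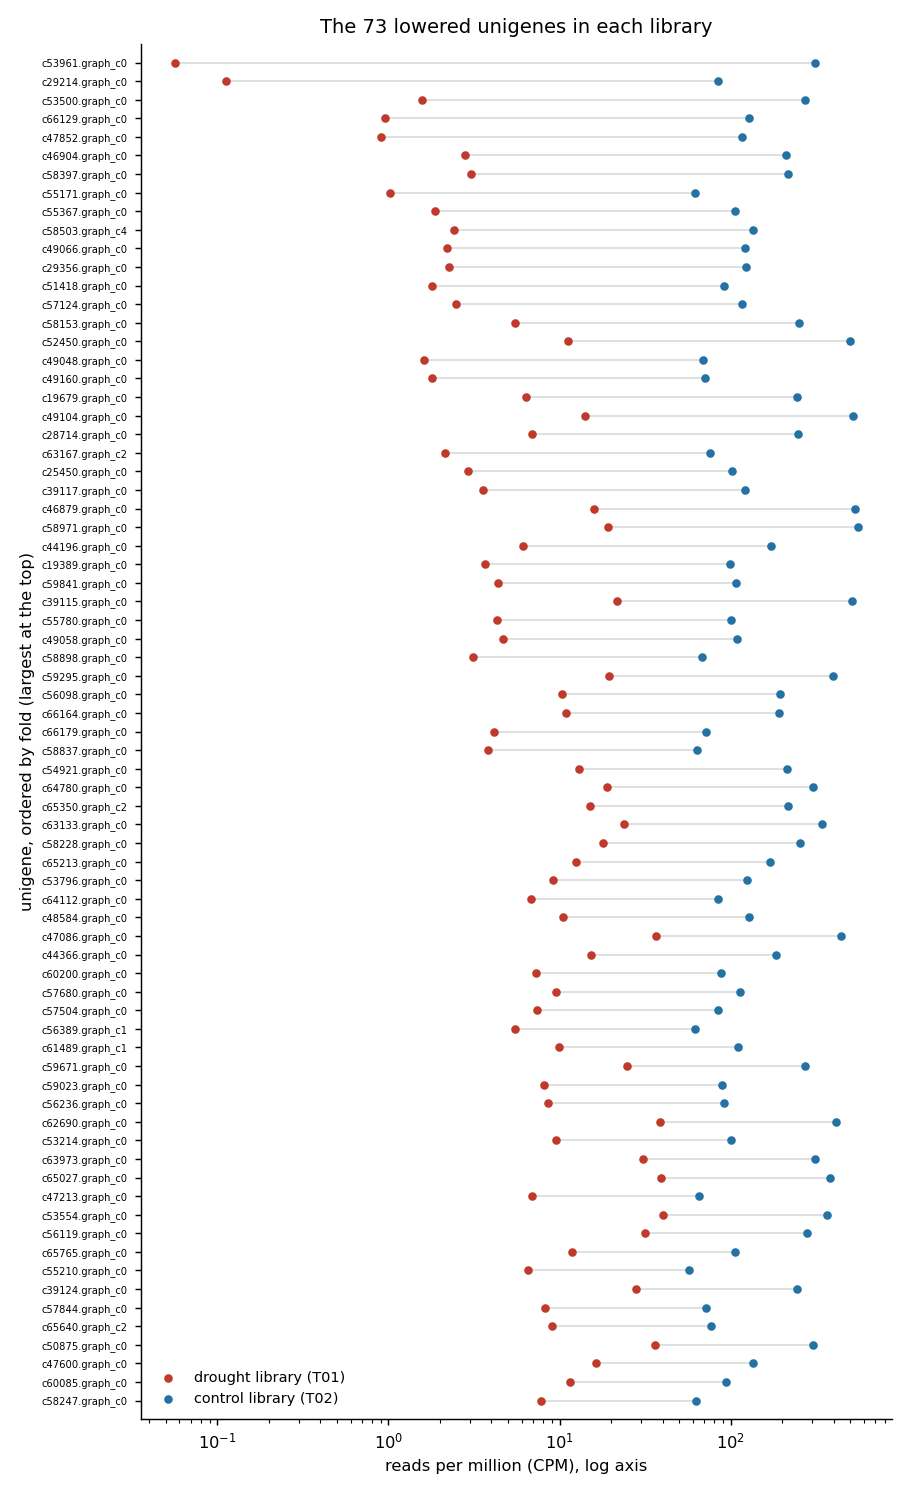
CPM of each of the 73 unigenes (horizontal log axis) in the drought library (red) and the control library (blue), 1 row per unigene, ordered by fold with the largest at the top. Drought points sit between 0.0564 and 40.1 CPM and control points between 57.3 and 558, and c53961.graph_c0 and c29214.graph_c0 stand far to the left of all others in drought.

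The fold changes were spread unevenly. Of the 73 unigenes, 34 were under 16-fold lower, 39 were at least 16-fold lower, 25 at least 32-fold, 7 at least 64-fold and 5 at least 100-fold. The most extreme was c53961.graph_c0 (841 bp), with 1 drought read and 5799 control reads, or 0.08 and 468.81 TPM. TPM is a level scaled for unigene length and for library size, so it can be compared between unigenes. The fold of c53961.graph_c0 was 5549.97, with a counting interval of 996 to 219245, because it rests on a single drought read. For c29214.graph_c0 (754 bp) there were 2 drought reads against 1558 in control, and it was 746-fold lower (interval 206 to 6162). In these libraries both were close to absent under drought. Every interval given with a fold is a 95% Clopper-Pearson (exact binomial) interval, taken on the part of a unigene's reads that came from drought. It covers counting error only, and PCR copies pass as separate reads in it.

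The next member by fold had 16 or more drought reads, as did all those after it. In c53500.graph_c0 (1354 bp), 28 drought reads stood against 5072 in control, and it was 173-fold lower (interval 120 to 261). The short unigene c66129.graph_c0 (286 bp) had 17 drought reads against 2368 in control and was 133-fold lower (interval 83.1 to 229). The fold of c47852.graph_c0 (1285 bp) was 129, from 16 drought reads and 2159 control reads (interval 79.3 to 226). These 3 intervals overlap, and the reads do not rank the 3 unigenes. The interval of c53500.graph_c0 also overlaps that of c29214.graph_c0. The unigene c46904.graph_c0 (790 bp) followed with 50 drought reads against 3897 in control and a fold of 74.6 (interval 56.5 to 101). Its interval overlaps those of c66129.graph_c0 and c47852.graph_c0.

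At the other end, the 3 unigenes just inside the 8-fold limit were c58247.graph_c0, c60085.graph_c0 and c47600.graph_c0. Their reads were 138 in drought and 1165 in control for c58247.graph_c0 (8.08-fold lower), 204 and 1754 for c60085.graph_c0 (8.23-fold) and 288 and 2502 for c47600.graph_c0 (8.31-fold). Just outside were c64174.graph_c1 with 162 drought and 1347 control reads (7.96-fold), c61003.graph_c0 with 755 and 6185 (7.84-fold) and c48399.graph_c0 with 483 and 3823 (7.57-fold). The counting intervals of 10 of the 73 unigenes reach down to 8 or below, so for these the limit divides unigenes that the reads do not separate. The limit of 1000 control reads fell between c55210.graph_c0 (116 drought and 1063 control reads) and c57361.graph_c0 (60 and 986), with c56389.graph_c1 (98 and 1144) and c28668.graph_c0 (86 and 952) next to them on either side. The limit set by the 200 most abundant unigenes fell between c58971.graph_c0 (343 drought and 10338 control reads, 28.9-fold lower) and c55734.graph_c0 (873 and 10617, 11.6-fold). Beside them stood c46879.graph_c0 inside and c52524.graph_c0 outside (381 drought and 11045 control reads, 27.7-fold).

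The share of lowered unigenes was larger at higher control abundance. Among unigenes with 1000 to under 2000 control reads, 27 of 1748 (1.54%) were at least 8-fold lower in drought. The share was 28 of 1085 (2.58%) at 2000 to under 5000 reads and 18 of 312 (5.77%) from 5000 reads up to the most abundant 200. Of the 200 left out, 20 (10%) passed the same limit. The median log2 ratio of all unigenes in these 4 classes ran in the same order, at -0.04, -0.25, -0.51 and -0.86. Because the classes and the ratio share the control reads, this gradient is a description of the 2 libraries. In the opposite direction, 235 of the 3512 unigenes with at least 1000 drought reads outside the drought library's own 200 most abundant (6.69%) were at least 8-fold higher in drought. The lowered unigenes were fewer than the raised ones under each of the 4 scalings that were tried, but the balance moved, with 120 lowered and 183 raised under upper-quartile factors.

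**Figure D2:**
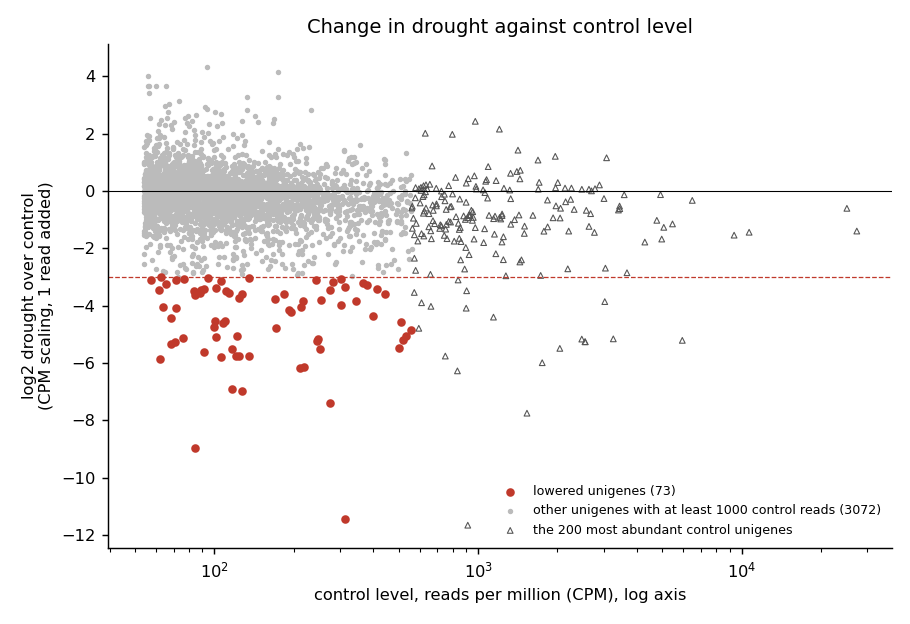
Log2 ratio of drought over control (vertical axis, 1 read added to each count) against the control level in CPM (horizontal log axis) for the 73 lowered unigenes (red), the other 3072 unigenes with at least 1000 control reads (grey) and the 200 most abundant control unigenes (triangles), with the 8-fold limit dashed. The red points lie between log2 ratios of -11.44 and -3.01, and 20 of the 200 triangles pass the same limit.

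Scaled for length, the 73 unigenes ranged between 0.08 and 67.65 TPM in drought (median 8.79) and between 30.81 and 1531.1 TPM in control (median 178.89). In control, 55 of them reached 100 TPM and 7 reached 500 TPM. The median of the other 3072 unigenes was 69.4 TPM in drought and 83.2 TPM in control. Most lowered unigenes remained measurable in drought. Of the 73, 70 were listed at 1 TPM or more there and 33 at 10 TPM or more. The median over all 60258 unigenes listed above 0 TPM in drought was 2.65 TPM, and 64 of the 73 lay above it.

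The highest control level was that of c46879.graph_c0 (475 bp), at 43.11 TPM in drought and 1531.1 TPM in control. It was 33.4-fold lower by reads (283 in drought, 9868 in control, interval 29.6 to 37.7). The unigene c49104.graph_c0 followed with 16.43 TPM in drought and 888.43 TPM in control, and c39115.graph_c0 with 35.45 and 867.21 TPM. The 234-bp unigene c61489.graph_c1, the shortest of the 73, had 67.65 TPM in drought and 806.83 TPM in control. The remaining pair among the 6 highest were c66129.graph_c0 (4.92 TPM in drought, 699.36 TPM in control) and c52450.graph_c0 (11.31 and 551.86 TPM). These 6 thus spanned 4.92 to 67.65 TPM in drought, so a high control level did not come with one common drought level.

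The drought levels had a different order. The shortest unigene c61489.graph_c1 was highest there, followed by c46879.graph_c0 and then by c56119.graph_c0 (39.90 TPM in drought, 370.97 TPM in control). The unigenes c39115.graph_c0, c47086.graph_c0 (33.47 TPM in drought, 432.81 TPM in control) and c50875.graph_c0 (30.69 and 272.96 TPM) completed the 6 that stayed at 30 TPM or more under drought. Apart from c46879.graph_c0 and c39115.graph_c0, which were 33.4-fold and 23.7-fold lower by reads, they were between 8.33-fold and 12.1-fold lower. The lowest control level was 30.81 TPM, in c58247.graph_c0, which had 3.55 TPM in drought.

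Length was not used to choose the unigenes, and the lowered ones were shorter than the other 3072. Control abundance was not matched between the groups. Their median length in the control table was 1090 bp (quartiles 777 and 1597 bp), against 1564 bp (1116 and 2074 bp) for the other 3072. Of the 73, 33 (45.2%) were under 1000 bp, as were 572 (18.6%) of the others. Turned round, 33 of 605 well-expressed unigenes under 1000 bp (5.45%) and 40 of 2540 longer ones (1.57%) were on the list. Within the list the same order appeared. The 33 shorter unigenes had a median fold of 33.4 and the 40 longer ones of 13.8, and of the 25 that were at least 32-fold lower 17 were under 1000 bp, against 10 of the 34 under 16-fold. Among the other 3072 the median fold was 1.30 under 1000 bp and 1.06 at 1000 bp and more, so this order is not particular to the list. The longest member, c39124.graph_c0 (2623 bp), was 8.68-fold lower, at 497 reads in drought and 4510 in control. A minimum of reads demands a higher TPM of a short unigene. Both groups met the same minimum, but their median control reads were 2297 and 1824. The part of control abundance in the difference in length was not tested.

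**Figure D3:**
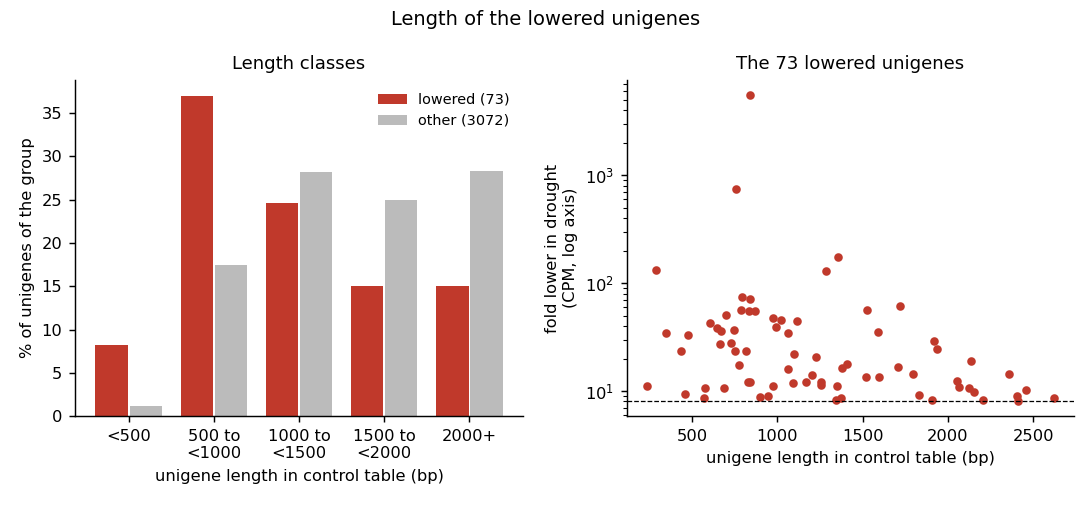
Left, share of unigenes in 5 length classes (control table, bp) for the 73 lowered unigenes (red) and the 3072 others with as many control reads (grey). Right, fold lower in drought (log axis, 8-fold limit dashed) of each lowered unigene against its length. Of the lowered unigenes 45.2% were under 1000 bp, against 18.6% of the others, and folds above 32 were seen mostly at short lengths.

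The lowered unigenes also held fewer assembled transcripts. Whether this goes with their shorter length was not tested. A single transcript made up 32 of the 73 (43.8%) and 812 of the 3072 others (26.4%), and the median number was 2 against 3. The largest was c60200.graph_c0 with 89 transcripts, 130 drought reads and 1630 control reads.

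For a unigene with several transcripts, each table gives its own length, read here as a mean weighted by transcript abundance. A difference between the tables then means that the estimated mixture of transcripts differed between the libraries. With 1 library per condition, the error of that estimate is not known. Of the 41 lowered unigenes with several transcripts, 6 (14.6%) differed in length by over 1.2 times, and of the 2260 others 108 (4.78%) did. The mean was shorter in drought in 5 of these 6 and in 66 of these 108, so with 6 unigenes no difference in direction is read. The 73 had a median of 138 drought reads and the others of 1679, and the part of this difference in depth was not tested. Among those with at least 100 drought reads, c65765.graph_c0 changed most, with a mean of 998.6 bp in drought and 2406 bp in control over 11 transcripts. It was followed by c57680.graph_c0 (548 bp in drought, 1090 bp in control, 29 transcripts) and by c49104.graph_c0 (1001 bp in drought, 743 bp in control, 2 transcripts), whose mean was longer in drought. Close behind it came c57844.graph_c0 (1024 bp in drought, 1371 bp in control, 3 transcripts).

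Where the mean length differed, the fold depended on the scale, since TPM allows for length and reads do not. By reads, c65765.graph_c0 was 8.95-fold lower (210 drought and 1964 control reads), but by TPM it was 3.77-fold lower (13.83 TPM in drought, 52.09 TPM in control). For c57680.graph_c0 the fold was 11.9 by reads (169 in drought, 2103 in control) and 5.90 by TPM (21.73 and 128.26 TPM). For c57844.graph_c0 it was 8.67 by reads (146 and 1323) and 6.75 by TPM (9.36 and 63.15 TPM). These were the only members of the 73 whose TPM fold was under 8. A pair with fewer drought reads, named here after their values were seen, also differed between the scales but stayed above that limit. The mean of c63167.graph_c2 was 623 bp in drought and 1591 bp in control (38 and 1414 reads), and it was 35.6-fold lower by reads and 13.7-fold lower by TPM. The mean of c55171.graph_c0 was 865 bp in drought and 1718 bp in control (18 and 1150 reads), and it was 61.1-fold lower by reads and 31.1-fold lower by TPM. In c49104.graph_c0, with the longer mean in drought, the order was the opposite, at 36.7-fold by reads and 54.1-fold by TPM.

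Trinity joins sequences that overlap into a component, and the unigenes of 1 component can be parts, copies or relatives of the same gene. The 73 unigenes lay in 73 different components, so none of them shared a component with another. In 60 of the 73 (82.2%) the lowered unigene was the only one of its component, as in 75.8% of the others. The remaining 13 components held 19 further unigenes, of which 12 had at least 100 control reads. Of these 12, 6 (50.0%) were at least 2-fold lower in drought. The share was 9.45% of the 3271 unigenes with at least 100 control reads in components of several unigenes. These 3271 leave out the 73 but include the 12, and control reads were not matched. Another 5 of the 12 were higher in drought, and 1 was lower by less than 2-fold. Reads of similar sequences could have been divided between unigenes of a component, so they are not independent of each other, and these shares have no test.

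In several components the unigenes were lower together. In c55780, the lowered unigene c55780.graph_c0 had 76 drought reads and 1869 control reads and was 23.5-fold lower. The other one, c55780.graph_c1, was itself among the 200 most abundant in control, with 939 drought reads, 16708 control reads and a fold of 17.0. Reads of c61489.graph_c1 numbered 176 in drought and 2053 in control (11.2-fold lower), beside c61489.graph_c0 with 9024 drought reads and 68061 control reads (7.22-fold). The unigenes c56389.graph_c1 and c56389.graph_c0 were 11.2-fold and 8.19-fold lower, the second with 890 control reads, under the minimum. For c39124.graph_c0 the fold was 8.68 beside 6.64 in c39124.graph_c1 (532 drought reads, 3689 control reads).

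In other components they parted. The reads of c58503.graph_c4 were 43 in drought and 2512 in control, and it was 55.9-fold lower (interval 41.4 to 77.5). In the same component c58503.graph_c3 had 3930 reads in drought and 3124 in control, with a log2 ratio of 0.39, and c58503.graph_c2 had 12180 and 16697 reads, with a log2 ratio of -0.39. In c63133, the lowered c63133.graph_c0 had 425 drought reads and 6384 control reads (14.4-fold lower), while c63133.graph_c1 had 1662 drought reads and 871 control reads (log2 ratio 0.99). In c65350, the lowered c65350.graph_c2 had 266 drought and 4009 control reads (14.4-fold lower), and c65350.graph_c1 had 1196 and 1134 (log2 ratio 0.14). The same split was seen at lower depth in c46879, where c46879.graph_c1 had 306 reads in drought and 182 in control, and in c65640, where c65640.graph_c0 had 244 and 188. The lowered unigene made up 18.2% of the component's drought reads and 77.8% of its control reads in c65350, and 20.4% and 88.0% in c63133. When the reads of each of the 13 components were summed, 6 were still at least 8-fold lower in drought.

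**Figure D4:**
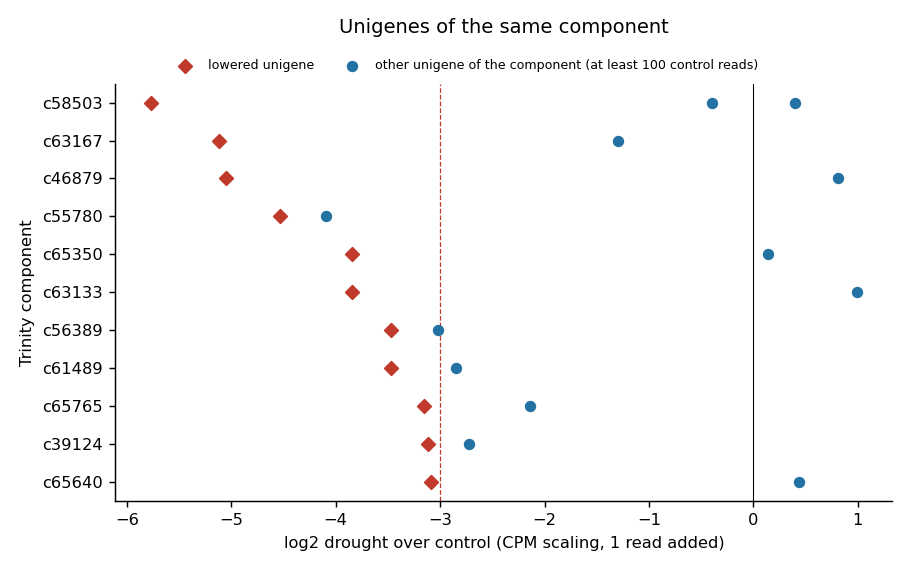
Log2 ratio of drought over control (horizontal axis, 1 read added to each count) of the lowered unigene (red diamond) and of the other unigenes with at least 100 control reads (blue circle) in the 11 components that hold both, 1 row per component, with the 8-fold limit dashed. In c58503, c46879, c65350, c63133 and c65640 a blue point lies above 0, while in c55780 and c56389 both points pass the limit.

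The length of the list moved with the scaling, and no replicate library can say which scaling is apt. With upper-quartile factors in place of library totals 120 unigenes met the same rule. These included all 73, as they must, because those factors lower the drought over control ratio of every unigene alike.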

How the data were processed

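Leaf RNA of 2 libraries was sequenced. The authors filtered the paired-end reads, built unigenes from them with Trinity and deposited a table for each library. The deposited estimated counts (expected counts) are reads per unigene without normalization. In the deposited TPM and FPKM values the authors had allowed for effective length and for depth. The deposited lengths are in bp. The submitters' processing notes name Bowtie 0.12.2, Cufflinks and the mouse build mm8. A mouse build cannot apply to unigenes assembled from the plant's own reads. Which program made the counts is not given in the sources used.

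CPM was computed from the estimated counts as deposited. Counts were rounded for the intervals (exact Clopper-Pearson, 95%) and for the scaling factors, which came from R 4.3.3 with edgeR 4.0.16 (TMM, upper quartile) and from DESeq2 1.42.0 (median-of-ratios). With 1 library per condition no test between conditions was run. Python 3.11.15, NumPy 2.4.6, SciPy 1.17.1, pandas 2.3.3 and matplotlib 3.10.9 were used. The rule and intervals were tested on simulated data. The simulated counts held counting error only, with no spread between plants or libraries, so the test covers the computation alone. The members and the lists were chosen with earlier results of these data known. Named unigenes are the 6 with the largest fold, the 6 with the highest TPM in each library, those next to each limit, those whose component holds another unigene with at least 1000 drought reads that was not lower, the 3 with the largest change in mean length (at least 100 drought reads), and the longest and shortest. Others are named where a statement rests on them and were chosen after their values were seen. Other scalings, units, limits and added reads were tried.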

Additional observations from a re-analysis of the deposited data

How the results depend on the processing

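Of the 16 alternatives for the number of listed unigenes, 11 gave a number within 1.5 times of 73. The exceptions were upper-quartile scaling (120 unigenes), a limit of 4-fold (172) or 16-fold (39), no minimum of control reads (11909) and a minimum of 2000 (46). TMM scaling gave 94 and median-of-ratios scaling 98. Both included all 73, which the direction of their shift fixes in advance. Relative to library totals, the log2 ratio of every unigene shifted by -0.29 with TMM, -0.32 with median-of-ratios and -0.50 with upper-quartile factors. The median log2 ratio of the 73 was accordingly -4.39, -4.42 and -4.60, against -4.10 with library totals. It was -4.15 from TPM, -4.06 from FPKM and -4.03 with 5 reads added, and it stayed below 0 in all 8 alternatives, which the choice of the unigenes fixes. The 73 took 2.15% of the control reads outside the 200 most abundant unigenes. Requiring the limit in both CPM and TPM, an alternative chosen after the values were seen, left 70. Depth limits the folds of the 7 unigenes with under 30 drought reads most, and no library could be left out.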
